A study of Mus musculus with 6 samples.

Results

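Transcripts of the endoplasmic reticulum stress response were examined in hippocampal RNA of young mice given lidocaine or not. The 10 genes, chosen by symbol, were the stress sensors Eif2ak3, Ern1 and Atf6, the transcription factors Atf4, Ddit3 and Xbp1, and the effectors Hyou1, Pdia4, Calr and Herpud1. All 10 matched 1 row each of a table of 22050 genes, and all 10 passed the filter on low counts, which left 13408 genes for testing. The control group held 3 hippocampal libraries of young control mice. The lidocaine group held 3 hippocampal libraries of young mice that had received injections of lidocaine, a sodium channel blocker used as a local anaesthetic, which the design describes as repeated. Strain, sex, age in numbers, dose and interval of injection are not in the labels, nor is it stated whether each library is 1 animal, so p-values here reflect variation among libraries, which may be technical. The old mice of the design were not analysed here.

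The endoplasmic reticulum folds proteins bound for membranes and secretion, and unfolded protein there sets off a response through 3 sensors in its membrane. PERK, the product of Eif2ak3, phosphorylates the translation factor eIF2, which slows protein synthesis while favouring translation of ATF4. IRE1, the product of Ern1, splices Xbp1 messenger RNA into a form that encodes an active factor, and ATF6 is cut in the Golgi to free its own active fragment. Several of these steps act on proteins, or on splicing, so a gene's total transcript count does not measure them. ATF6 and spliced XBP1 raise transcripts of chaperones and of the machinery that sends misfolded proteins to the proteasome. In neurons, eIF2 phosphorylation is also known for its part in long-term memory.

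Many targets of ATF6 and XBP1 carry the endoplasmic reticulum stress element, ERSE (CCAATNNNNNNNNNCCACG), or its relative ERSE-II (ATTGGNCCACG), in which N is any base. Both were searched on both strands in the 250 bases upstream of the start of mouse genes, using RefSeq promoters on GRCm38.p6. ERSE occurred in 37 of 32851 promoters (0.113%) and ERSE-II in 10 (0.0304%). Of the 10 genes, 8 had a promoter in the table, and Atf6 and Hyou1 did not. Calr held ERSE, read on the strand opposite to the gene, and Herpud1 held ERSE-II. Only exact matches of the fixed bases in this window counted. Variant or more distant elements were not searched, so a gene without a match may still hold one. Of 95 other pathway genes with a promoter, 9 held ERSE, namely Canx, Creld2, Derl3, Dnajc3, Ero1b, Hsp90b1, Hspa5, Pdia6 and Syvn1. The stretches of Calr, Herpud1 and Hspa5, which encodes the chaperone BiP, are shown because these genes tie the textbook element to the measured effectors. They are written 5′ to 3′ along each gene, with the fixed bases of the element in capitals.
Calr promoter: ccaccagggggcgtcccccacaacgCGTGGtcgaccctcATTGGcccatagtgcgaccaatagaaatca
Herpud1 promoter: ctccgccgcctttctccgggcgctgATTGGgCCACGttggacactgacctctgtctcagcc
Hspa5 promoter: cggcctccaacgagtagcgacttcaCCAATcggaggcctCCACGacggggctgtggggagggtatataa
The Calr stretch lies at chr8:84847050-84847118 on the minus strand, that of Herpud1 at chr8:94386352-94386412 on the plus strand and that of Hspa5 at chr2:34772000-34772068 on the plus strand. The element begins 162, 52 and 65 bases upstream of the start in Calr, Herpud1 and Hspa5. A match describes these letters and does not show binding, and the expression table itself carries rat Ensembl identifiers in all 22050 rows although the labels name the mouse, so the species of the gene models behind the values is not settled.

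Libraries held 13887604 to 16984995 estimated counts. Markers of hippocampal principal neurons were present in all 6 libraries, with 8 of 8 above 0 and a summed level of 4779 to 5023 CPM (counts scaled to library size) in controls and 4822 to 5715 CPM with lidocaine. Oligodendrocyte markers, 8 of 8 above 0, summed to 11187 to 12851 CPM in controls and to 8084 to 11011 CPM with lidocaine. These sums did not overlap, but abundant markers weigh most in them. Singly, all 8 had a negative log2 fold change, and the groups separated for 2 of 8, against 9.98% of all tested genes. Their mean log2 CPM relative to each gene's own average did overlap, at 0.05 in control 1 and 0.08 in lidocaine 3. Meningeal fibroblast markers, 5 of 6 matched and all above 0, summed to 83.2 to 97.3 CPM and 100.2 to 135 CPM. Those sums did not overlap either, and singly the groups separated for 2 of 5. Summed levels of astrocyte, microglial, endothelial, choroid plexus and plasma cell markers overlapped between the groups. The part of cell makeup in the values below was not tested, and in bulk tissue fewer cells of a type and less RNA per cell cannot be told apart.

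No gene of the set differed between lidocaine and control hippocampus by the test used. edgeR's quasi-likelihood test with Benjamini-Hochberg adjustment over all tested genes called 0 of the 10, against 2 of 13408 genes in all (0.0149%). The smallest adjusted p of the 10 was 0.995. At an unadjusted p under 0.05 edgeR gave 0 of the 10, against 4.36% of all tested genes. DESeq2 also called 0 of the 10, against 0.172% of all tested genes, and limma-voom called 0 of the 10, against 2 of 13408. The groups of 3 did not separate in CPM for any of the 10, against 9.98% of all tested genes. The median log2 fold change was -0.03 over the 10 and 0.00 over all tested genes (-0.00029), with 2 of the 10 positive and 8 negative, from -0.12 for Atf4 to 0.14 for Xbp1. Exact two-sided permutation tests of each gene's log2 CPM gave p from 0.2 for Atf6 to 1 for Calr and Herpud1, where 3 against 3 cannot give less than 0.1.

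**Figure D1:**
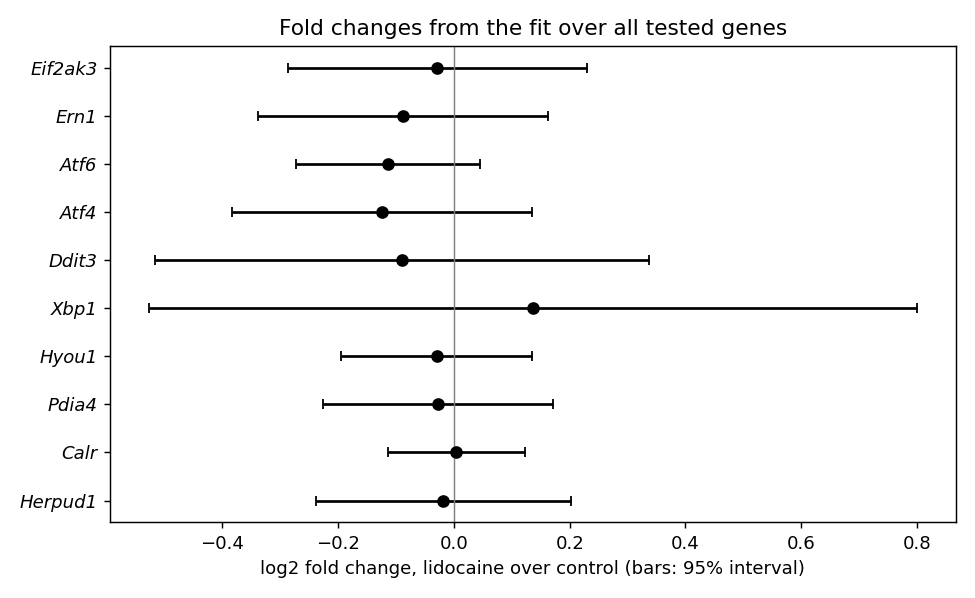
Log2 fold change of lidocaine over control (horizontal axis) for each of the 10 genes, as points with 95% intervals from edgeR, n = 3 libraries per group. Every interval includes 0, the narrowest belonging to Calr and the widest to Xbp1.

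Levels per transcript length, in the deposited FPKM (fragments scaled to transcript length and library size), spanned 92.7-fold between the most and the least abundant of the 10. Calr, a calcium-binding lectin chaperone of the reticulum, averaged 207 FPKM over the 6 libraries, and its ERSE-bearing companion Hspa5 averaged 199 FPKM. Atf4 followed Calr among the 10 at 65.8 FPKM, then Herpud1 at 39.9, Pdia4 at 31.8 and Hyou1 at 13.9 FPKM. The effectors thus filled 4 of the 5 highest places, with a transcription factor in second place. Ddit3 averaged 10.3 FPKM, Atf6 8.13, Eif2ak3 6.65, Ern1 2.79 and Xbp1 2.23 FPKM. Sensors and the remaining factors therefore made up the lower places of the order. Ddit3 lay above Atf6 in 6 of 6 libraries although their ranges over libraries overlapped, at 7.72 to 12.7 and 7.52 to 8.81 FPKM. Ern1 and Xbp1 also overlapped, and Ern1 was the higher in 5 of 6 libraries. Other neighbours in the order did not overlap, but the gap was only 0.02 FPKM between Atf6 and Eif2ak3, 0.12 between Hyou1 and Ddit3 and 0.28 between Herpud1 and Pdia4.

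**Figure D2:**
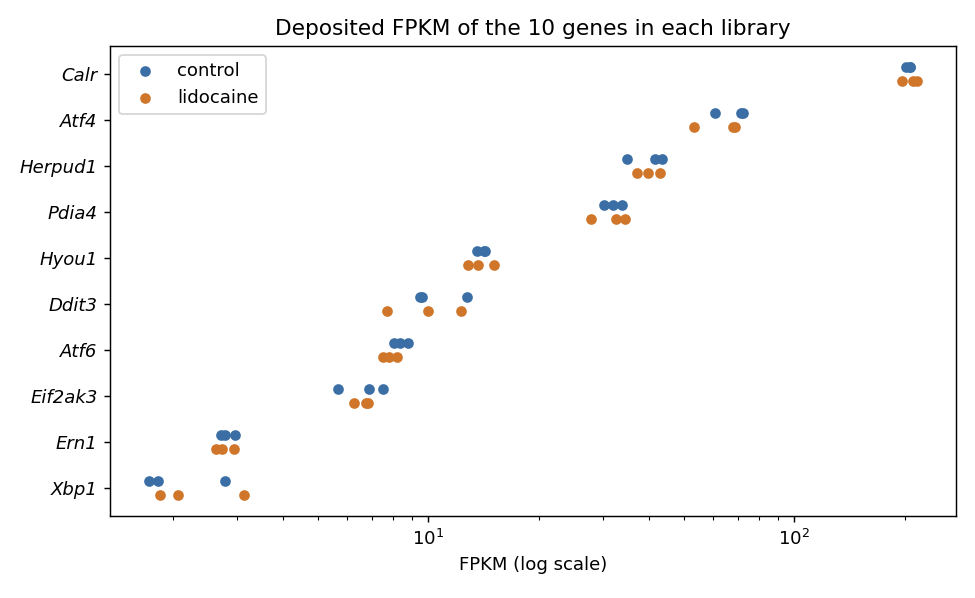
Deposited FPKM (horizontal axis, log scale) of the 10 genes in each of the 6 libraries, controls above and lidocaine below within each row. Genes are ordered by mean, from Xbp1 at 2.23 to Calr at 207 FPKM, and control and lidocaine points intermix in every row.

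The sensors were of moderate to low abundance. Eif2ak3 stood at 57.2, 52.8 and 43.1 CPM in controls 1 to 3 and at 50.7, 47.1 and 52.2 CPM in lidocaine 1 to 3. Control libraries held both its highest and its lowest value, so the lidocaine range lay inside the control range. Its log2 fold change was -0.03 ± 0.11 (SE), and the 95% interval ran from 0.82-fold to 1.17-fold. Ern1 stood at 29.0, 29.5 and 31.7 CPM in controls and at 24.8, 28.9 and 31.3 CPM with lidocaine. Lidocaine 1 was the lowest library, and the other two lidocaine libraries lay among or next to the controls. The log2 fold change of Ern1 was -0.09 ± 0.11, with an interval from 0.79-fold to 1.12-fold.

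Atf6 came nearest to separating the groups. It stood at 66.6, 70.2 and 64.0 CPM in controls and at 61.1, 64.5 and 60.0 CPM with lidocaine. Only lidocaine 2 and control 3 crossed. Group means were 66.9 ± 3.13 and 61.9 ± 2.33 CPM (SD, n = 3 each), and the log2 fold change was -0.11 ± 0.07 (SE), with an interval from 0.83-fold to 1.03-fold. By edgeR its Benjamini-Hochberg-adjusted p was 0.995. Counts of Atf6 and Eif2ak3 were fractional in some libraries, while those of Ern1 were whole.

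Among the transcription factors, Atf4 was the most abundant. ATF4 activates genes of amino acid supply and redox defence when eIF2 is phosphorylated. Its transcript stood at 172, 171 and 144 CPM in controls and at 159, 161 and 127 CPM with lidocaine. The third library was the lowest of each group, and the groups overlapped because control 3 lay below lidocaine 1 and 2. Means were 162 ± 15.9 and 149 ± 19.0 CPM (SD, n = 3 each), and the log2 fold change was -0.12 ± 0.11 (SE), with an interval from 0.77-fold to 1.10-fold.

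Ddit3 encodes CHOP, a factor tied to cell death under prolonged stress that ATF4 induces. It stood at 19.2, 14.8 and 14.3 CPM in controls and at 18.2, 15.1 and 12.1 CPM with lidocaine. Each group had library 1 well above its other libraries. The log2 fold change was -0.09 ± 0.18 (SE), and the interval ran from 0.70-fold to 1.26-fold. The coefficient of variation was 16.7% among controls and 20.0% among lidocaine libraries, where counting alone, at 193 to 309 counts per library, would give 6.42%. In the mouse annotation (GENCODE M21), exons of Ddit3 overlap those of the methionyl-tRNA synthetase gene Mars on the opposite strand. Whether the counting used strand is not given in the sources used here, so reads from the shared stretch cannot be told apart.

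Xbp1 was the least abundant of the 10 and the most variable. It stood at 3.46, 5.30 and 3.28 CPM in controls and at 3.47, 5.84 and 3.96 CPM with lidocaine, from 45.6 to 94.5 estimated counts. Library 2 was the highest of each group, and the remaining libraries of both groups lay between 3.28 and 3.96 CPM. The coefficient of variation was 27.9% among controls and 28.3% among lidocaine libraries, where counting alone would give 12.3%. Its log2 fold change was 0.14 ± 0.29 (SE), and the interval from 0.69-fold to 1.74-fold was the widest of the 10. Counts of Xbp1 were fractional, and the table gives 1 value per gene, so spliced and unspliced Xbp1 cannot be told apart.

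**Figure D3:**
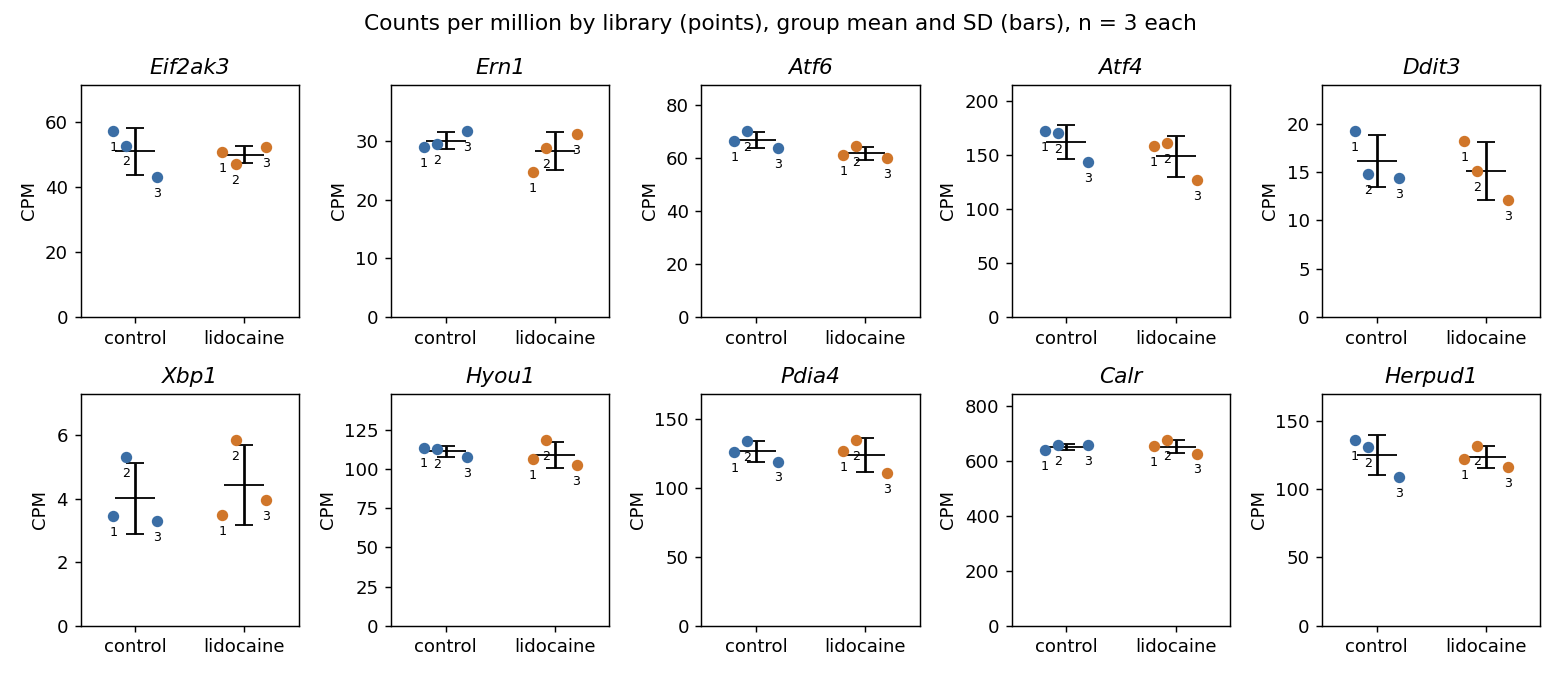
CPM (vertical axis, from 0) of each gene in the 6 libraries, with points numbered by library and black bars for the group mean and SD, n = 3 each. Control and lidocaine points overlap in all 10 panels, and library 2 is the highest of both groups for Xbp1.

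The effectors of folding and disposal had coefficients of variation over the 6 libraries from 2.60% for Calr to 8.45% for Herpud1, a range that also holds the 5.76% of Atf6. Calr stood at 638, 657 and 656 CPM in controls and at 654, 676 and 627 CPM with lidocaine, the lidocaine libraries spanning the whole control range. Means were 650.1 ± 10.7 and 652 ± 24.5 CPM (SD, n = 3 each), and the log2 fold change was 0.00 ± 0.05 (SE), with an interval from 0.92-fold to 1.09-fold. The variation of Calr was the smallest of the 10, and counting alone would give 0.994%. Hyou1, a large chaperone of the HSP70 family that also acts as an exchange factor for BiP, stood at 114, 113 and 108 CPM in controls and at 107, 119 and 102 CPM with lidocaine. Lidocaine libraries were both the highest and the lowest. The log2 fold change of Hyou1 was -0.03 ± 0.07, with an interval from 0.87-fold to 1.10-fold.

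Pdia4, a protein disulfide isomerase that forms disulfide bonds in new proteins, stood at 126, 134 and 119 CPM in controls and at 127, 134 and 110 CPM with lidocaine. The groups covered nearly the same range, with lidocaine 3 the lowest library. The difference was -0.03 ± 0.09 (SE) on the log2 scale, with an interval from 0.86-fold to 1.13-fold. Herpud1, a membrane protein of the complex that exports misfolded proteins for degradation, stood at 136, 130.5 and 109 CPM in controls and at 122, 132 and 116 CPM with lidocaine. All lidocaine libraries fell between control 3 and control 1. The log2 fold change of Herpud1 was -0.02 ± 0.09 (SE), with an interval from 0.85-fold to 1.15-fold. Counts of Calr, Pdia4 and Herpud1 were whole and those of Hyou1 fractional.

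Most of the 10 genes were lowest in library 3 of each group, although the labels name no source that libraries of one number share. Control 3 was the lowest control for 8 of the 10, against 33.4% of all tested genes. Lidocaine 3 was the lowest lidocaine library for 7 of the 10, against 35.4% of all tested genes. For 6 of the 10, namely Atf6, Atf4, Ddit3, Hyou1, Pdia4 and Herpud1, both held, against 13.3% of all tested genes. The mean of the 10 relative to each gene's own average was -0.09 in control 3 and -0.11 in lidocaine 3 on the log2 CPM scale. In the other libraries it was 0.06 and 0.09 in controls 1 and 2 and -0.03 and 0.08 in lidocaine 1 and 2. In 111 tested genes of wider pathway lists library 3 was lowest in both groups for 23 (20.7%), with control 3 lowest of its group for 45.0% and lidocaine 3 for 32.4%. By list, the share with both lowest ran from 0% of 6 genes (ATF6 family) to 33.3% of 9 genes (IRE1 partners). It was 27.6% for 29 chaperones and folding enzymes and 13.0% for 23 degradation genes. These counts come from the same 6 libraries and carry no test. Control 3 had the smallest library total, 13887604, whereas the 16045172 of lidocaine 3 were the middle value of its group. On the same relative scale, principal neuron markers averaged 0.13 in control 3, below the 0.18 of control 2, and 0.49 in lidocaine 3, the highest lidocaine value. Log2 fold changes of the single neuron markers ran from -1.07 to 0.28. Other marker lists averaged from -0.16 (meningeal fibroblasts) to 0.45 (choroid plexus) in control 3. In lidocaine 3 they averaged from -0.03 (endothelium) to 0.08 (oligodendrocytes). The part of cell makeup in the pattern was not tested.

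**Figure D4:**
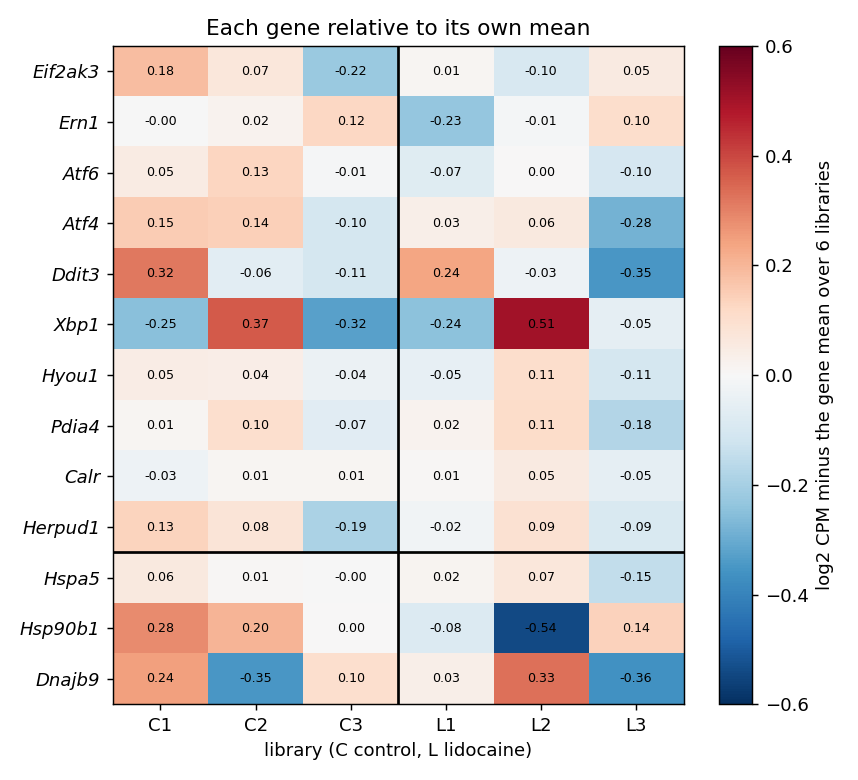
Log2 CPM of each gene minus its own mean over the 6 libraries (colour and printed value), with controls left and lidocaine right of the vertical line and 3 further chaperone genes under the horizontal line. Library L3 is at or below 0 for 8 of the 10 genes above the line, and Xbp1 stands out at 0.37 in C2 and 0.51 in L2.

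The other genes of the pathway gave the same count of calls. Of 118 gene symbols in 7 lists, 115 matched the table and 111 were tested. edgeR with Benjamini-Hochberg adjustment called 0 of the 111, against 0.0149% of all tested genes. DESeq2 also called 0 of the 111, against 0.172% of all tested genes, and limma-voom called 0, against 2 of 13408. At an unadjusted p under 0.05 edgeR gave 3 of the 111 (2.70%), against 4.36% of all tested genes. That count was 7 without lidocaine 1, against 640 of 13590 genes in all. It was 2 without control 1 (503 of 13625) or lidocaine 2 (522 of 13600), and 5 by DESeq2 (527 of 13408). Limma on log2(FPKM + 1) gave 7, against 651 of 13408, and on log2(FPKM + 0.1) also 7, against 637 of 13408. The groups did not overlap for 12 of the 111 (10.8%), against 9.98% of all tested genes. The median log2 fold change of the 111 was 0.01, with 62 positive and 49 negative.

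Chaperones and folding enzymes, 29 genes, had a median log2 fold change of 0.01 with 18 positive and 11 negative. Hspa5, whose product BiP holds the sensors inactive in the absence of stress, stood at 895, 863 and 857 CPM in controls and at 869, 901 and 774 CPM with lidocaine. Lidocaine 3 was the lowest and lidocaine 2 the highest library, as for Hyou1, Pdia4 and Calr. The difference was -0.04 ± 0.07 (SE) on the log2 scale, with an interval from 0.87-fold to 1.08-fold. Hsp90b1, which encodes the chaperone GRP94, stood at 117, 111 and 96.5 CPM in controls and at 91.0, 66.2 and 106 CPM with lidocaine, with fractional counts. Lidocaine 2 was far below the rest, and the log2 fold change was -0.30 ± 0.17. The BiP cochaperone gene Dnajb9, an XBP1 target, had 0.01 ± 0.21, and Sdf2l1, another stress-induced part of BiP complexes, had -0.26 ± 0.15 on the log2 scale.

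The 11 genes whose promoters held ERSE or ERSE-II, Calr and Herpud1 among them, had a median log2 fold change of -0.04, with 3 positive and 8 negative. edgeR with Benjamini-Hochberg adjustment called 0 of the 11, against 0.0149% of all tested genes, and the groups separated for 0 of the 11, against 9.98%. Values ran from -0.30 for Hsp90b1 to 0.07 for Syvn1, the ubiquitin ligase HRD1 of reticulum-associated degradation.

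Targets of PERK and ATF4, 19 tested genes, had a median of 0.01 with 10 positive and 9 negative, and held all 3 pathway genes with an unadjusted p under 0.05, which is 15.8% of the list against 4.36% of all tested genes. Without lidocaine 2 the list held 1 such gene, Vldlr (522 of 13600 genes in all), and without lidocaine 1 it held 5 (640 of 13590). Without control 1 it held 2 (503 of 13625), and without control 2 also 2 (617 of 13631). The groups did not overlap for 5 of the 19, against 9.98% of all tested genes. Separation did not require a large difference, as log2 fold changes of the 5 ran from 0.02 to 1.04. Atf3, an early stress-induced factor, was counted 31, 18 and 12 times in controls and 38, 47 and 54 times with lidocaine. That is 2.14, 1.14 and 0.86 CPM against 2.23, 2.92 and 3.39 CPM, so control 1 lay just below lidocaine 1. The difference on the log2 scale was 1.04 ± 0.38 (SE), and edgeR put its Benjamini-Hochberg-adjusted p at 0.995. Vldlr, a lipoprotein and reelin receptor, had a control mean of 63.7 ± 2.60 CPM and a lidocaine mean of 72.9 ± 1.08 CPM (SD, n = 3 each), which differ by 0.20 ± 0.06 (SE) on the log2 scale. Phgdh, the first enzyme of serine synthesis, had means of 152 ± 14.0 and 176 ± 6.92 CPM, which differ by 0.21 ± 0.08 on that scale. Neither Vldlr nor Phgdh passed the adjustment, each having a Benjamini-Hochberg-adjusted p of 0.995 by edgeR. Ppp1r15a, the stress-induced phosphatase subunit that reverses eIF2 phosphorylation, had 0.01 ± 0.12. Trib3, a kinase-like target of CHOP, was counted 0 to 3 times per library. It was therefore not tested, and a small change in it was not detectable at this depth.

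The remaining 5 lists held 0 of 64 tested genes with an unadjusted p under 0.05 in edgeR, against 4.36% of all tested genes. Under the alternatives they held 0 to 2, where 503 to 707 of all tested genes had such a p. Degradation genes had a median of 0.01 over 23 genes, with the extracting ATPase Vcp at 0.09 ± 0.05 (SE) on the log2 fold scale. For eIF2 kinases and regulators the median was -0.01 over 11 genes, and the smallest p-values belonged to Eif2b2, a subunit of the eIF2 exchange factor, at 0.15 ± 0.07 and to the adaptor Nck1 at 0.18 ± 0.11. The ATF6 family and its proteases had a median of 0.06 over 6 genes, with Atf6b, the close relative of Atf6, at 0.09 ± 0.09 and Creb3l1 at 0.21 ± 0.23. IRE1 partners had a median of 0.02 over 9 genes, with Tmbim6, which restrains IRE1, at 0.07 ± 0.06 and Rtcb, the ligase that joins spliced Xbp1, at 0.06 ± 0.07. Translocation genes, a further list, had a median of -0.03 over 15 genes, with the translocon-associated Ssr1 at -0.12 ± 0.06 and Ssr2 at 0.07 ± 0.06. Each of these genes had a Benjamini-Hochberg-adjusted p of 0.995 by edgeR.

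**Figure D5:**
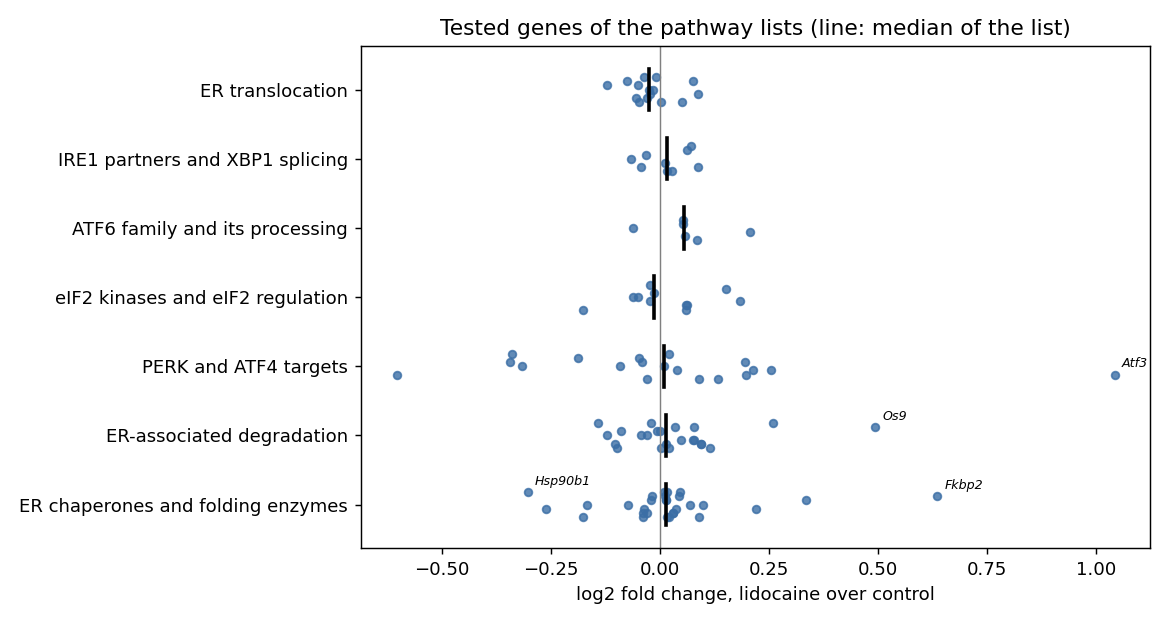
Log2 fold change of lidocaine over control (horizontal axis) for each tested gene of the 7 pathway lists (points), with the list's median as a black line. Medians lie between -0.03 and 0.06, and Atf3 at 1.04 is the point farthest from 0.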

How the data were processed

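Hippocampal RNA was sequenced in 6 libraries; per the labels' protocols, an RNeasy kit yielded the RNA and a SMARTer kit the libraries. The submitters' processing notes name mm10; which aligner, counter and annotation were used is not given in the sources here. The table deposited by the authors gives estimated counts, not normalised, and FPKM values, scaled by the authors for length and depth, per the file headers. Columns were matched to sample titles by group initial and number.

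Estimated counts were rounded, filtered with filterByExpr and scaled by TMM (factors 0.991 to 1.009). Groups were compared with edgeR 4.0.16 in R 4.3.3 (robust quasi-likelihood F-test, two-sided, calls at an adjusted p under 0.05); intervals came from the F statistic. CPM use TMM-scaled totals, except summed markers, which use plain totals. Of the tested genes, 44.8% have a fractional count. DESeq2 1.42.0 and limma 3.58.1 were alternatives, as were other scalings, filters, a block and left-out libraries. Every pair of libraries differed beyond sampling noise (chi-square over degrees of freedom at least 9.89). Depth was not the only limit on precision. For each gene of the set, variation over the 6 libraries exceeded that of counting alone. It was 2.60% against 0.994% for Calr and 25.7% against 12.3% for Xbp1. The intervals cover this spread between libraries.

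The members and lists were chosen with earlier results of these data known. Named were all members, 6 textbook targets, the 2 genes of smallest p in each list, and genes with a promoter element. One gene that this rule would name is not reported here. Promoters came from RefSeq (GRCm38.p6).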

Additional observations from a re-analysis of the deposited data

How the results depend on the processing

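The count of called genes among the 10, and among the wider pathway, was 0 under all 15 alternatives run. Over all genes, 2 were called, against 23 by DESeq2, 5 by limma on log2(FPKM + 0.1), 0 with the replicate number as a block, and 0 to 6 when 1 library was left out (0 without control 3 or lidocaine 2, 1 without control 1, 6 without lidocaine 1); the cause was not tested. Signs of small fold changes were not stable: 16 of 150 alternative values of the 10 genes, in 8 genes, had the other sign. Leaving out each library gave log2 fold changes from -0.14 to 0.061 for Eif2ak3, -0.16 to 0.0036 for Ern1, -0.24 to 0.056 for Ddit3, -0.11 to 0.39 for Xbp1, -0.091 to 0.016 for Hyou1, -0.089 to 0.0502 for Pdia4, -0.0199 to 0.034 for Calr and -0.11 to 0.047 for Herpud1. Herpud1 was 0.0011 on log2(FPKM + 1) and 0.0013 on log2(FPKM + 0.1). Atf4 (-0.20 to -0.02) and Atf6 (-0.14 to -0.08) kept their sign in every alternative.

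Whether libraries of one number belong together is not in the labels, and correlations of deviations from means of 3 libraries cannot settle it. Across genes, deviations of same-numbered libraries correlated at 0.05, 0.03 and -0.0014. Controls 1 and 2 correlated best with the lidocaine library of their own number, and control 3 did not. With the replicate block, Atf4 had -0.13 ± 0.05 (unadjusted p = 0.0498, adjusted p = 0.913 in edgeR), and no gene of the 10 was called. With the block the 3 pathway genes at an unadjusted p under 0.05 were Slc7a5, Vldlr and Phgdh, without Atf3, against 682 of 13408 genes in all. At 0 to 3 counts per library, Trib3 was not tested, and depth precludes a statement on a small change in it.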

Other observations

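A few pathway genes, singled out after their values were seen, have uneven estimates. Eif2b3 encodes a subunit of the eIF2 exchange factor that every cell uses. It was listed at 99.1 estimated counts in lidocaine 1, at 0.15 in lidocaine 3 and at 0 in the other libraries. Whether a listed 0 is a failed estimate or an absent transcript was not tested. Atf5, a relative of Atf4, and Ern2, the IRE1 form of gut epithelium, were listed at 0 in all 6 libraries. Fkbp2, a proline isomerase of the reticulum, had 84.9, 203 and 99.7 estimated counts in controls and 332, 146 and 185 with lidocaine, or 0.64 ± 0.39 (SE) higher on the log2 scale, where edgeR put its Benjamini-Hochberg-adjusted p at 0.995. Os9, a lectin of the degradation route, had 113, 104 and 72.1 counts in controls and 229, 101 and 123 with lidocaine, and its log2 fold change was 0.49 ± 0.31. For both genes lidocaine 1 was the highest library and the groups overlapped.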
